A study of Apis mellifera with 6 samples.

Results

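The transcripts described here were high in the brains of drones and low in those of queens and workers. They are the 17 of 28409 annotated transcripts (targets) with at least 10 TPM (a transcript's reads per unit of its length, scaled to a fixed total per library) in both drone libraries and a lower drone value at least 5 times the highest value of the 4 queen and worker libraries. A further 3 targets met these thresholds and were set aside by name, since they encode the odorant-binding proteins Obp13 and Obp14 and the cuticular protein CPF2. The same thresholds turned to queens gave 46 targets and turned to workers gave 23, with the same gene names left out.

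The study profiled central brains of 3 honey bee (Apis mellifera) phenotypes at adult emergence: drones, which are haploid males, and queens and workers, which are diploid females. Each phenotype had 2 libraries, and each library came from a pool of dissected brains. Optic lobes were removed from all brains and hypopharyngeal glands from those of workers, all bees were offspring of 1 mother queen, and polyadenylated RNA went into strand-specific libraries. The estimated counts summed to 40453911 and 11287495 in the drone libraries, 44373783 and 21203822 in the queen libraries, and 12432182 and 7685185 in the worker libraries.

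Drones develop from unfertilised eggs and leave the colony to mate, whereas queens lay the eggs and workers nurse, build and forage. One gene can give several transcripts through different start sites, different ends and alternative splicing, and males and females of many insects use different transcripts of the same gene. RNA from a dissected tissue sums over all its cells, so more cells of a type and more RNA per cell cannot be told apart in these data. The members were chosen by their drone, queen and worker TPM, so these values are given as a description with no test.

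Strand decided which genes could be seen. The 13998 targets annotated on the plus strand held between 89.2% and 92.7% of the TPM of a library and had a median mean of 6.45 TPM. The 14383 targets on the minus strand held between 3.18% and 6.13%, with a median of 0.0962 TPM. Genes that nearly every cell uses showed the same split, since the plus-strand ribosomal protein gene Rps14 stood between 973 and 1523 TPM over the 6 libraries and the minus-strand RpL32 between 0 and 0.625 TPM. The cause was not tested, and values of minus-strand genes cannot be read as their expression. Accordingly, 16 of the 17 members lay on the plus strand, and LOC411525 was the only one on the minus strand.

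The members came from 16 genes on 13 chromosomes, 16 of the targets being protein-coding and 1 a long non-coding RNA. All of these genes carry RefSeq locus numbers (LOC) in place of names, and the annotation used here states no product, so no role is given for them. Mean drone levels ran from 10.9 to 4518 TPM with a median of 54.9 TPM, and 13 of the 17 members had a lower drone value at least 10 times the highest queen or worker value. The median ratio of the higher to the lower drone value was 1.07, and the widest was 1.78. Over the 5252 plus-strand targets of 10 TPM or more in both drones, the median ratio was 1.10. The selection acts on the lower drone value, so it favours transcripts whose drone libraries are close. All coordinates below are on the Amel_HAv3.1 assembly, and all genes are on the plus strand unless stated.

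**Figure D1:**
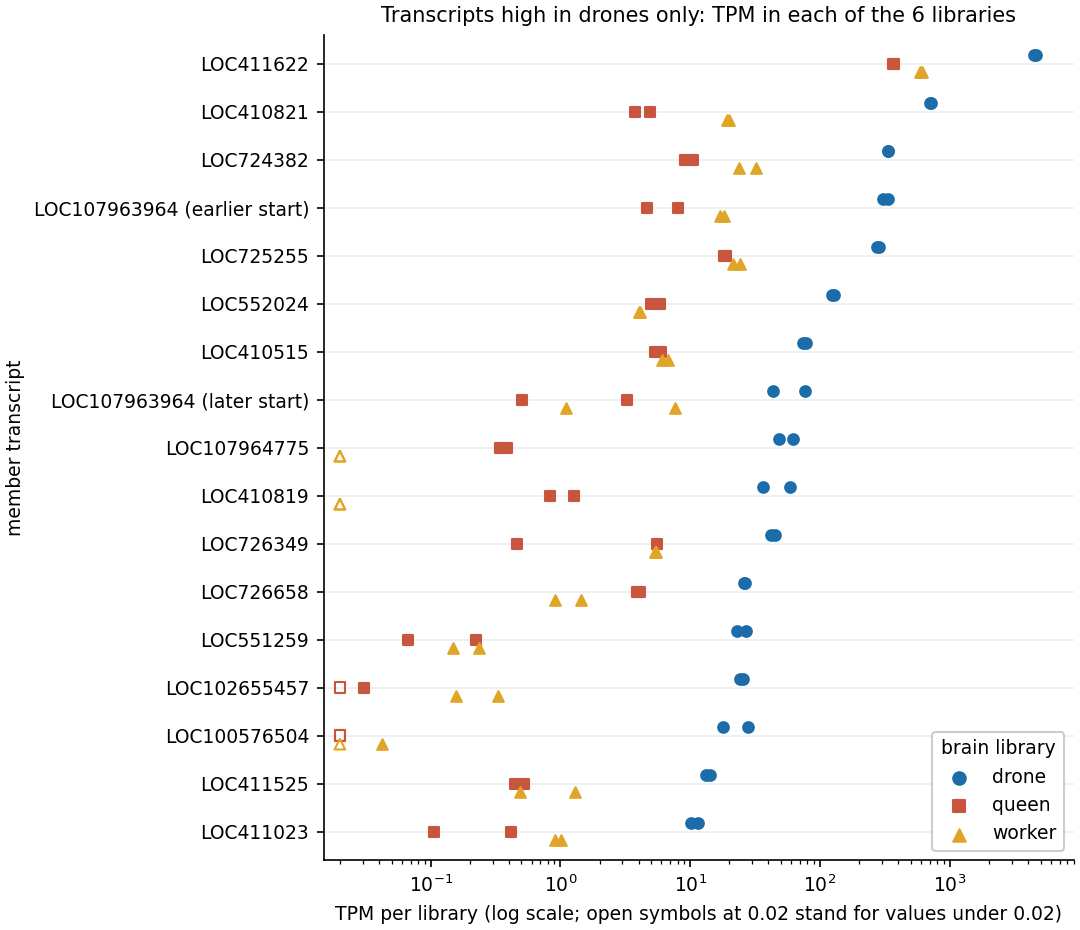
TPM of each of the 17 member transcripts (rows, in order of mean drone value) in the 2 drone, 2 queen and 2 worker brain libraries, on a log scale, with open symbols for values under 0.02 TPM. Drone points lie to the right of all queen and worker points in every row, as the selection requires, while queens and workers trade places from row to row.

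LOC411622 was by far the most abundant member. It is a 2-exon gene with 1 transcript of 636 bases on chromosome 12 (3908373 to 3916277). Its level was 4433 and 4604 TPM in the drone libraries, 367 and 369.6 TPM in queens, and 611 and 593 TPM in workers. It made up 67.0% and 68.1% of the summed member TPM of the drone libraries, which was 6619 and 6765 TPM against 432 and 427 TPM in queens and 717 and 710 TPM in workers. The mean drone level was 12.3 times that of queens and 7.50 times that of workers, so LOC411622 was also clearly present in both female castes.

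Another set of members was high in drones and low but readily counted in females. LOC724382, on chromosome 3 (13600431 to 13603511, 5 exons), had 335 and 336 TPM in drones, 10.5 and 9.04 TPM in queens and 23.8 and 31.9 TPM in workers. LOC725255, on chromosome 5 (3640490 to 3648232, 9 exons), had 276 and 285 TPM in drones, 18.1 and 19.0 TPM in queens and 23.99 and 21.2 TPM in workers. LOC552024, on chromosome 8 (8626452 to 8629999, 4 exons), had 124 and 129 TPM in drones, 5.85 and 4.99 TPM in queens and 4.10 and 3.997 TPM in workers. For these 3 genes the higher drone value was at most 1.04 times the lower one, and queens lay below workers at LOC724382 and LOC725255 and above them at LOC552024. LOC410515, on chromosome 14 (7830535 to 7841278, 11 exons), had 74.1 and 78.0 TPM in drones, 5.94 and 5.38 TPM in queens and 6.07 and 6.76 TPM in workers. LOC726658, on chromosome 8 (8658663 to 8660224, 3 exons), had 25.8 and 26.3 TPM in drones, 4.12 and 3.90 TPM in queens and 0.902 and 1.44 TPM in workers. The ratio of drones to queens was thus the smaller one at LOC726658 (6.49 times, against 22.2 times over workers) and the larger one at LOC724382 (34.3 times, against 12.1 times).

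LOC107963964 entered the group with both of its annotated transcripts. The gene spans 13395375 to 13398982 on chromosome 6, and the transcripts differ in a first exon of 272 bases (13395375 to 13395646) or of 99 bases (13396774 to 13396872). The transcript with the earlier start had 304 and 334 TPM in drones, 4.61 and 8.05 TPM in queens and 18.4 and 17.1 TPM in workers. The transcript with the later start had 77.0 and 43.2 TPM in drones, 3.25 and 0.510 TPM in queens and 1.11 and 7.67 TPM in workers, so the split of the gene's reads between them varied between pools of one phenotype. Their sum was steadier, at 381 and 378 TPM in drones, 7.86 and 8.56 TPM in queens and 19.5 and 24.7 TPM in workers.

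Reads in females were close to absent at LOC107964775 and LOC102655457. LOC107964775 is the long non-coding RNA, with 3 exons and 698 bases on chromosome 7 (3812434 to 3813357). It had 48.3 and 61.4 TPM in drones (682 and 232 estimated counts), 0.389 and 0.340 TPM in queens (5 and 2 counts) and no count in either worker library. Drones were therefore at least 42.1-fold higher than workers, taking 3 counts per worker library as the floor that a count of 0 allows. The opposite strand holds the protein-coding gene LOC412162 across the whole of LOC107964775. LOC102655457, on chromosome 15 (4484407 to 4488451, 4 exons), had 24.3 and 25.3 TPM in drones (1765 and 509 counts), against 2 and 0 counts in queens and 7 and 2 counts in workers. No fold change is given for this gene because of those few counts in females. Intervals and floors of this kind cover counting error only.

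The other members were single transcripts of genes that have more. Of the 16 member genes, 8 have 1 annotated transcript and 8 have more. The summed TPM of all transcripts met the thresholds for all of the first 8 genes and for LOC107963964 and LOC411023 among the others. In the remaining 6, the gene as a whole did not meet them. The TPM of single transcripts that share exons is an estimate by the quantification software from reads that fit several of them, so the exons that belong to 1 transcript alone are named in each case.

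**Figure D2:**
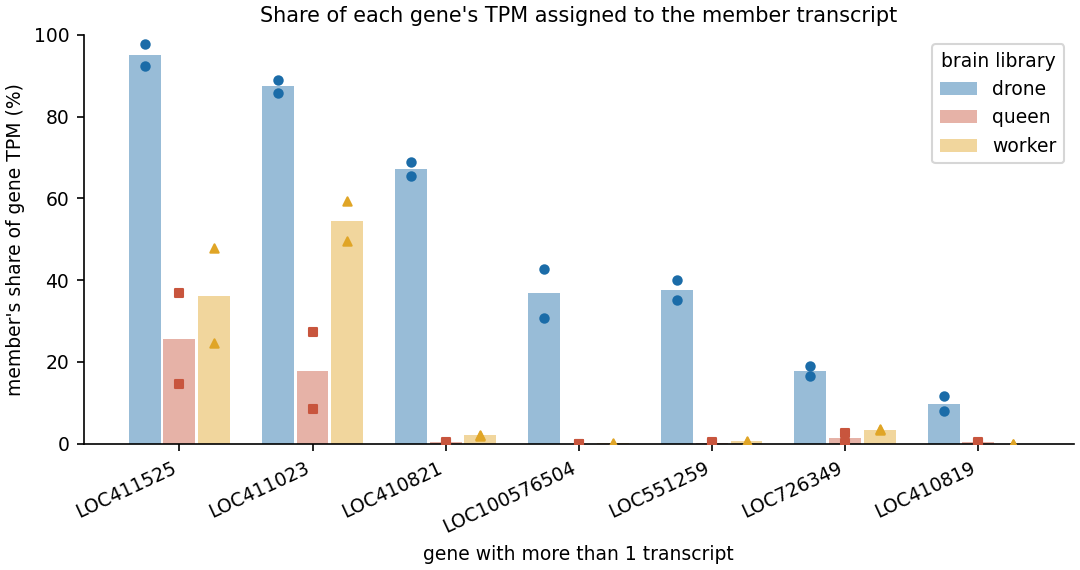
Share of a gene's summed TPM (%) that was assigned to the member transcript in drone, queen and worker libraries, for the 7 genes with both member and other transcripts. Bars are the means of 2 libraries and points the single libraries. The drone share was higher than every queen and worker share in all 7 genes, which the selection by drone TPM favours. It was 69.0% and 65.4% against at most 2.10% at LOC410821, and 11.7% and 7.85% against at most 0.319% at LOC410819.

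LOC410821, on chromosome 2 (13988911 to 14000100), had the most abundant of these transcripts. The member starts at 13988911 and has 5 exons, with a first exon that runs to 13989245 and holds 165 bases found in no other transcript of the gene. Its level was 715 and 698 TPM in drones, 4.89 and 3.76 TPM in queens and 19.2 and 19.9 TPM in workers. The transcript that starts at 13989075, within that first exon, had 209 and 252 TPM in drones, 1327 and 1297 TPM in queens and 808 and 907 TPM in workers. The pair thus ran in opposite directions, with no overlap between drones and females for either. Besides the start, this transcript has a 5-base exon (13990529 to 13990533) that the member lacks. Summed over its 4 transcripts, the gene had 1036 and 1068 TPM in drones, 1448 and 1414 TPM in queens and 912 and 1014 TPM in workers. On TPM, the total in drones was below that in queens (0.735 times its mean) and near that in workers (1.09 times). Scaled by TMM factors instead, the gene was at 1533 and 1570 CPM (counts scaled to a fixed library total) in drones. Queens were then at 1528 and 1407 CPM and workers at 1066 and 1201 CPM. The place of drones among the phenotypes thus depended on the scale. The member was 69.0% and 65.4% of the total in drones, 0.338% and 0.266% in queens and 2.10% and 1.96% in workers.

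LOC551259 differed in where its transcripts end. The gene runs from 8852924 to 9058966 on chromosome 7, has 30 annotated transcripts, and the member has 107 exons and 41358 bases. Its last exon (9012618 to 9012847, 230 bases) belongs to this transcript alone. The member had 26.7 and 23.0 TPM in drones, 0.0664 and 0.223 TPM in queens and 0.236 and 0.150 TPM in workers. A further 2 transcripts end before it, at 9009240, and 27 end after it, between 9047251 and 9058966. The transcripts ending before it summed to 29.2 and 31.2 TPM in drones, 12.3 and 10.5 TPM in queens and 11.7 and 13.3 TPM in workers. The longer ones summed to 10.9 and 11.1 TPM in drones, 50.2 and 46.6 TPM in queens and 19.98 and 20.9 TPM in workers. Longer transcripts therefore held 16.3% and 17.1% of the gene's TPM in drones, 80.3% and 81.3% in queens and 62.6% and 60.9% in workers. The gene total was 66.8 and 65.3 TPM in drones, close to the 62.5 and 57.3 TPM of queens and above the 31.9 and 34.4 TPM of workers.

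**Figure D3:**
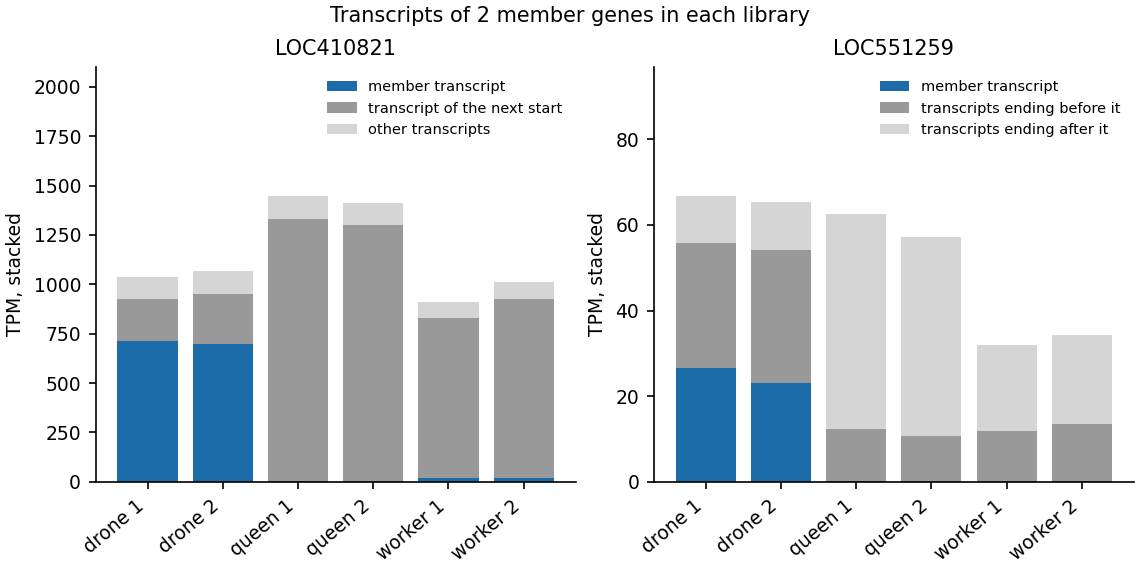
Stacked TPM of the transcripts of LOC410821 (left) and LOC551259 (right) in each library, with the member in blue. At LOC410821 the transcript of the next start fills most of the queen and worker bars, and at LOC551259 the transcripts that end after the member do so, while bar heights differ less than their composition.

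At LOC411023, on chromosome 4, the member was the transcript with the earlier end. It runs over 24 exons (9277880 to 9298041) and closes with an exon of 501 bases (9297541 to 9298041) that the 39-exon transcript (9277427 to 9320451) lacks. The member had 10.2 and 11.6 TPM in drones, 0.414 and 0.106 TPM in queens and 1.01 and 0.913 TPM in workers. The 39-exon transcript was closer between phenotypes, with 1.69 and 1.43 TPM in drones, 1.11 and 1.15 TPM in queens and 0.693 and 0.934 TPM in workers. The short form was 85.8% and 88.99% of the gene's TPM in drones, 27.2% and 8.42% in queens and 59.3% and 49.4% in workers.

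LOC410819, 94.5 kb further along chromosome 2 from LOC410821, has 12 annotated transcripts that differ mainly in their start. The member (14110985 to 14124159, 9 exons) is set apart by a first exon of only 16 bases (14110985 to 14111000). It had 58.9 and 36.1 TPM in drones and 1.27 and 0.835 TPM in queens, and less than 0.01 counts in either worker library. No fold change over workers is given for this transcript. Only those 16 bases are its own, and the other reads were divided between transcripts by an estimate. The whole gene was much more even, with 504 and 460.3 TPM in drones, 396 and 376 TPM in queens and 259 and 303 TPM in workers.

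At LOC726349 and LOC100576504 the member holds no base of its own, so its value depends on how shared reads were divided. The LOC100576504 member does have exons (11211754 to 11213728 and 11213798 to 11215137) that no other transcript of the gene has in the same form. LOC726349, on chromosome 1 (20415154 to 20445513), has 13 transcripts, of which the member (14 exons, from 20421270) had 45.3 and 41.7 TPM in drones, 5.53 and 0.467 TPM in queens and 5.47 and 5.36 TPM in workers. Its gene total was 239 and 253 TPM in drones, 208 and 211 TPM in queens and 156 and 163 TPM in workers. LOC100576504, on chromosome 9 (11202285 to 11215137), has 5 transcripts, of which the 6-exon member had 28.1 and 17.9 TPM in drones, 0 TPM in both queen libraries and 0 and 0.0423 TPM in workers. No fold change is given for this transcript, because its 0 TPM in queens rests on how shared reads were divided. The whole of LOC100576504 kept a difference, with 65.6 and 58.1 TPM in drones, 6.76 and 5.89 TPM in queens and 24.3 and 28.5 TPM in workers.

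LOC411525, on chromosome 16 (739105 to 750729), was the member on the minus strand. It had 13.3 and 14.2 TPM in drones, 0.520 and 0.448 TPM in queens and 1.29 and 0.484 TPM in workers. The member's exon from 739105 to 740474 holds 950 bases that no other of the gene's 5 transcripts has. The gene overlaps the plus-strand gene LOC552086, which was at 163 and 152 TPM in drones, 227 and 215 TPM in queens and 172 and 179 TPM in workers, and for the reason given above the value of LOC411525 cannot be read as its expression.

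At the edges of the selection, members and other transcripts had close values. LOC413500 fell short of the TPM minimum with 10.01 and 9.85 TPM in drones, next to LOC411023 inside it. LOC410211 (7.65 and 15.1 TPM) and LOC100577562 (7.52 and 11.3 TPM) also had a drone library under the minimum. On the ratio, LOC107963964 with the later start (5.64 times), LOC726658 (6.26 times) and LOC411622 (7.25 times) were the closest inside, and LOC102655814 (4.93 times), LOC552773 (4.77 times) and LOC408544 (4.69 times) the closest outside. With TPM summed per gene, 11 genes met the thresholds, namely 10 of the member genes and LOC100577562, which had 26.001 and 27.2 TPM in drones, 0.464 and 0.582 TPM in queens and 4.84 and 4.88 TPM in workers.

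The selection treated queens and workers alike, so it did not fix the direction of the difference between the female castes, which was tested. In an edgeR quasi-likelihood fit over all targets and 6 libraries, 16 of the 17 members passed the filter on low counts and LOC100576504 did not. Of these 16, 5 were lower and 1 was higher in queens than in workers at a false discovery rate (FDR, Benjamini-Hochberg) below 0.05. Over all 17037 targets tested, 6.19% were called, 2.81% lower and 3.38% higher in queens, and over plus-strand targets alone 8.45% were called. The median log2 fold change of the tested members was -0.94, against 0.04 for all targets. Replicates are pools of brains from bees of 1 mother queen, and p-values measure the spread between such pools. That spread was estimated from all 6 libraries, drones included. The selection favours members whose drone libraries are close, so p-values of members and of their genes may be too small. A fit that left out the drone libraries called 2 of the 14 members it tested. How much of this drop came from the selection was not tested.

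LOC410821 had the widest of the calls lower in queens, with 5.43 and 4.07 CPM (counts scaled to a fixed library total) in queens against 23.3 and 24.5 CPM in workers. Its log2 fold change was -2.31 with a standard error of 0.15 (edgeR FDR 0.00303). LOC411622, next by FDR, was at -0.93 with a standard error of 0.06 (edgeR FDR 0.00335), with 95.6 and 89.3 CPM in queens against 173 and 179 CPM in workers. Both calls held in every alternative run, with a highest FDR of 0.0498 and 0.0425. LOC724382 (-1.67, SE 0.20, edgeR FDR 0.0168), LOC107963964 with the earlier start (-1.67, SE 0.26, edgeR FDR 0.0313) and LOC725255 (-0.44, SE 0.07, edgeR FDR 0.0396) were lower in queens too. Their direction held in every alternative run, but their calls did not. All 3 were lost in a fit without the drone libraries (edgeR FDR 0.0997 for LOC724382, 0.109 for LOC107963964 and 0.229 for LOC725255) and with the replicate block (edgeR FDR 0.0685 for LOC724382, 0.0761 for LOC107963964 and 0.108 for LOC725255). LOC725255 was also lost with library totals, with no filter, after thinning and in limma (FDR between 0.0513 and 0.152). Among single libraries, LOC724382 was no longer called without either drone or either queen library (edgeR FDR up to 0.107). LOC107963964 lost its call without either drone or either worker library (edgeR FDR up to 0.0967), and LOC725255 without any library other than worker replicate 2 (edgeR FDR up to 0.198).

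The call higher in queens was the LOC410819 transcript, at 4.77 and 3.09 CPM in queens and 0 CPM in workers (edgeR FDR 0.0421). No fold change is given for it, because its counts depend on how reads shared with other transcripts were divided. It was not called in limma (FDR 0.131) or in a fit without the drone libraries (edgeR FDR 0.0734). The call was lost without any library other than drone replicate 1. Leaving out single libraries moved the number of called members, which was 3 without drone replicate 1, 2 without drone replicate 2, 3 without queen replicate 2 and 3 without worker replicate 1.

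**Figure D4:**
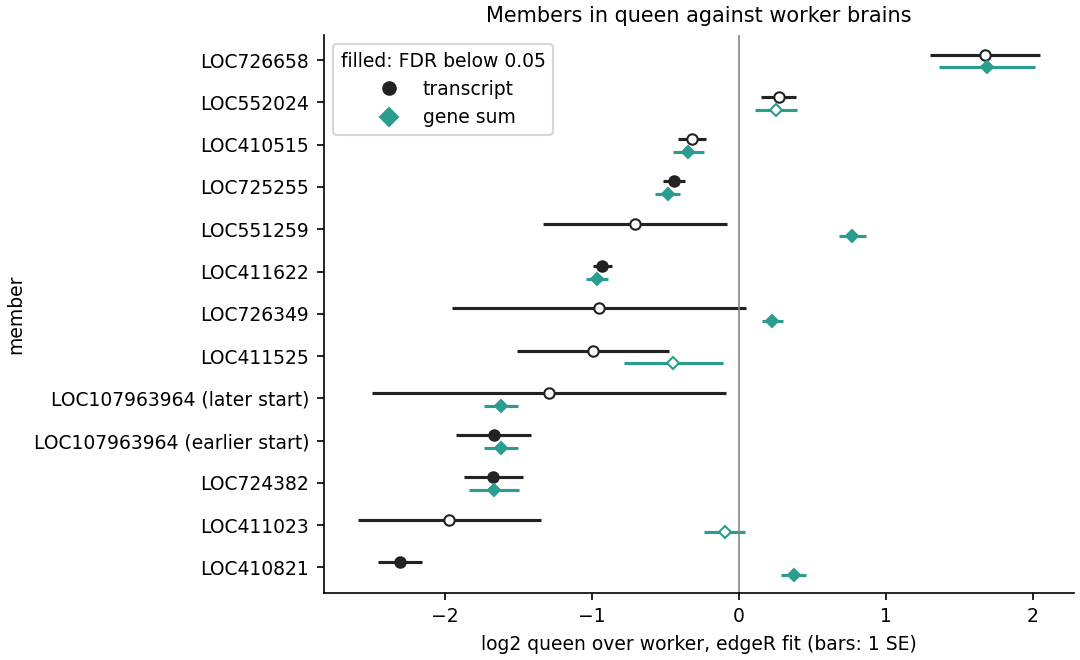
Log2 fold change of queens over workers with 1 standard error for member transcripts (circles) and for their genes (diamonds), filled where the edgeR FDR was below 0.05. LOC410819, LOC107964775, LOC102655457 and LOC100576504 are not drawn, as transcripts or as genes. Of these, the transcripts of LOC410819 and LOC107964775 were higher in queens in the fit. The LOC102655457 transcript was lower in queens, and so was LOC100576504 as a gene. Most of the transcripts drawn lie left of 0, and the transcript and gene values of LOC410821 lie on opposite sides, at -2.31 and 0.37.

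Summed per gene, 11 of the 16 member genes were called, 4 higher and 7 lower in queens, where 22.3% of the 9724 genes tested were called (10.7% higher and 11.5% lower in queens) and 30.7% of those on the plus strand. The median log2 fold change was -0.22, against -0.0028 over all genes. Lower in queens were LOC100576504 (-2.20, SE 0.13), LOC724382 (-1.67, SE 0.17), LOC107963964 (-1.62, SE 0.12), LOC411622 (-0.97, SE 0.08), LOC725255 (-0.49, SE 0.09), LOC410515 (-0.34, SE 0.10) and, on a few counts, LOC102655457. LOC102655457 had 2 and 0 counts in queens and 7 and 2 in workers, and passed the filter only with the drone libraries it was selected on. Its call was lost in limma (FDR 0.305) and after thinning (edgeR FDR 0.0750). Higher were LOC726658 (1.69, SE 0.33), LOC551259 (0.77, SE 0.09), LOC410821 (0.37, SE 0.09) and LOC726349 (0.23, SE 0.07). LOC410821 was therefore higher in queens as a gene (edgeR FDR 0.0120) while its member transcript was lower, since the transcript starting at 13989075 outweighed the member in both castes. LOC410515 lost its call with median-of-ratios scaling, no filter, the replicate block, thinning, no drone libraries and limma (FDR between 0.0663 and 0.403). LOC726349 lost its call with median-of-ratios scaling, the replicate block and no drone libraries (edgeR FDR between 0.0539 and 0.134), and LOC725255 in limma (FDR 0.0615). Without worker replicate 1, 6 of the 11 calls were left, and LOC410821 (edgeR FDR 0.0532) and LOC726658 (edgeR FDR 0.0620) were among those lost. LOC410821 was also not called without queen replicate 1 (edgeR FDR 0.101), LOC410515 without any of the 4 queen and worker libraries (up to 0.278) and LOC726349 without any library other than drone replicate 1 (up to 0.155).

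Genes beside the members were examined next, none of which holds a member. The gene before and the gene after each member gene gave 31 neighbours, of which 27 could be tested. Of the 31, 6 overlap a member gene on the opposite strand. In drones, 8 were higher and 9 lower than in queens, against 15.3% higher and 15.2% lower over all genes. Against workers, 9 were higher and 3 lower, where 13.5% of all genes were higher and 14.5% lower. Both comparisons use the same drone libraries. Among the 14 plus-strand neighbours, 3 were higher and 7 lower than in queens, where 22% of plus-strand genes were higher and 20.2% lower. Against workers, 4 of the 14 were higher and 3 lower, where 17.6% of plus-strand genes were higher and 20.9% lower. Without queen replicate 1, 11 of the neighbours were called between drones and queens in place of 17.

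The following neighbours were picked out after their values were seen. Fibroin4, a silk fibroin gene that lies 2513 bases before LOC411622, had 7.19 and 6.68 TPM in drones, 2.21 and 1.64 TPM in queens and 1.47 and 0.961 TPM in workers (log2 fold change 2.24, SE 0.38, edgeR FDR 0.00136 over queens and 2.68, SE 0.44, edgeR FDR 0.00128 over workers). Fibroin1, Fibroin2 and Fibroin3 lie just before it and did not share that order, with Fibroin1 at 3.35 and 2.96 TPM in drones, 7.53 and 6.90 TPM in queens and 2.58 and 5.20 TPM in workers. LOC102655520, 2048 bases after LOC102655457, had 4.32 and 5.15 TPM in drones, 1.12 and 0.571 TPM in queens and 0.341 and 0.544 TPM in workers (2.85, SE 0.39, over queens and 3.71, SE 0.47, over workers). CPR5, a cuticular protein gene 6480 bases from the minus-strand member LOC411525, had 26312 and 27428 TPM in drones, 4451 and 4219 TPM in queens and 5825 and 5807 TPM in workers (3.07, SE 0.11, over queens and 2.44, SE 0.11, over workers). Genes with symbols beginning CPR were left out of the selection by name, so CPR5 could not be a member.

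Other plus-strand neighbours moved the other way. LOC410820, which lies 3378 bases before LOC410819, was lower in drones by a log2 fold change of -0.78 (SE 0.09) against queens and -0.74 (SE 0.09) against workers. LOC409063, 2499 bases before LOC725255, was likewise lower, by -0.81 (SE 0.07) and -0.62 (SE 0.07). On the minus strand, the long non-coding RNA LOC107965384 within LOC411622 had 5.78 and 7.76 TPM in drones, 1.29 and 1.01 TPM in queens and 1.00 and 0.801 TPM in workers. LOC552049, which overlaps LOC552024, and LOC113218903, 99 bases before LOC551259, were also higher in drones, by 3.24 (SE 0.64) and 3.68 (SE 0.25) over queens. These minus-strand values share the limit given for the strand.

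**Figure D5:**
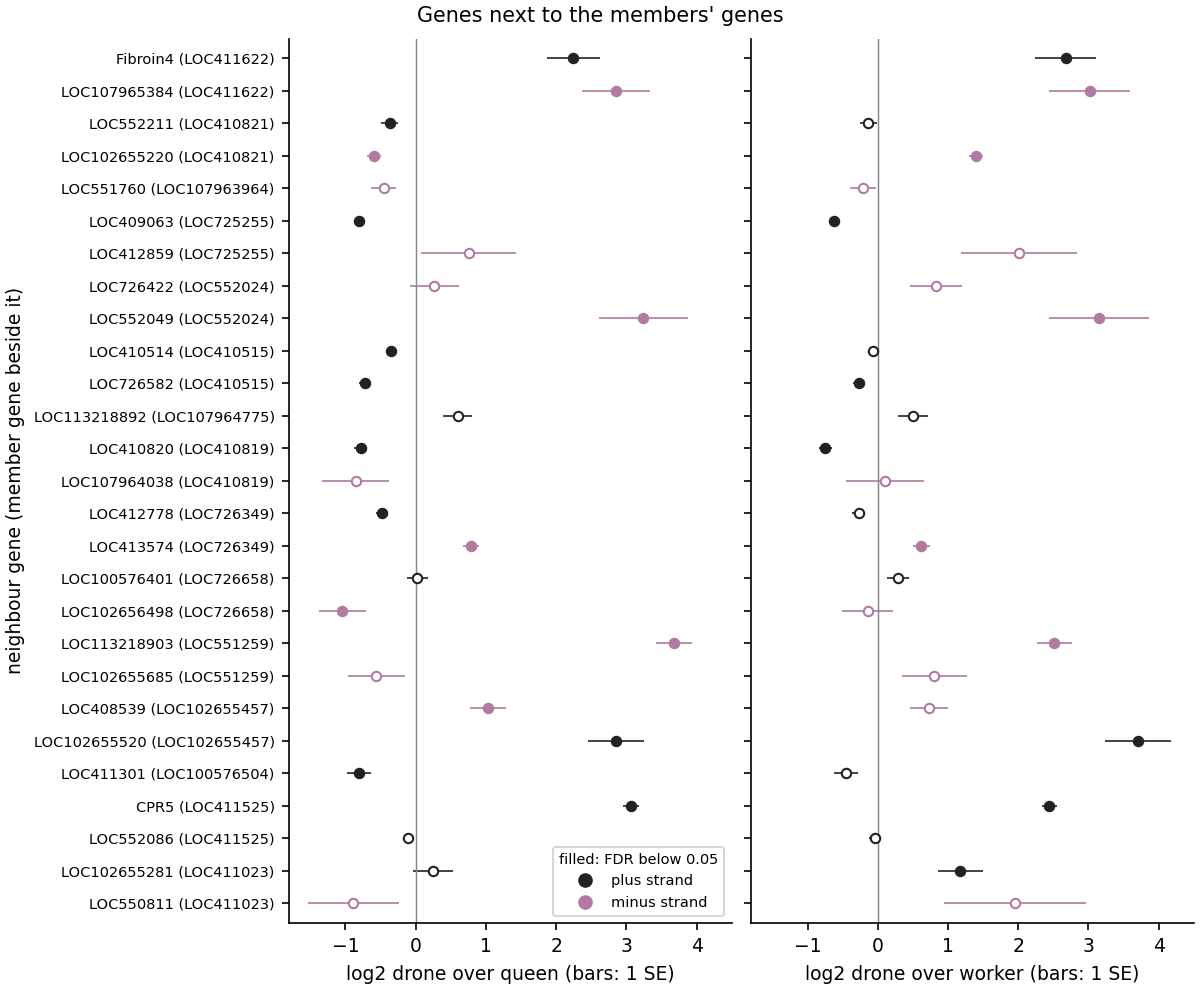
Log2 fold change with 1 standard error of drones over queens (left) and over workers (right) for the 27 tested genes next to a member gene, named in brackets, filled where the edgeR FDR was below 0.05. Both panels share the drone libraries. Fibroin4, LOC102655520 and CPR5 on the plus strand stand above 2 in both, and most other plus-strand neighbours lie near or below 0.

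Members were spread over the genome. On the same chromosome, the closest pair was LOC552024 and LOC726658, 28.7 kb apart on chromosome 8 with 4 genes between them. Of these 4, LOC100576401 on the plus strand had 47.7 and 46.8 TPM in drones, 63.2 and 60.9 TPM in queens and 47.3 and 40.5 TPM in workers, so this gene did not share the pattern of the pair, while LOC552049 on the minus strand was at 3.84 and 3.19 TPM in drones, 0.299 and 0.780 TPM in queens and 0.105 and 0.942 TPM in workers. LOC410821 and LOC410819 had 11 genes between them, among them Vamp7, a vesicle membrane protein gene, with 87.5 and 96.9 TPM in drones, 111 and 126 TPM in queens and 106 and 103 TPM in workers. In length and structure the members were unremarkable, with a median of 2441 bases and 5 exons, against 2190 bases and 7 exons for the 5252 plus-strand targets of 10 TPM or more in both drones, and 94.1% against 97.5% of them were protein-coding.

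Markers of other tissues differed between the phenotypes. Of the lists examined, the cuticle and fat body lists had their highest plus-strand sums in drones. The fat body list, with Tsf1 as its 1 plus-strand gene, was at 1481 and 1573 TPM in drones, 1214 and 1190 TPM in queens and 1179 and 1293 TPM in workers. Summed over plus-strand genes, cuticular protein genes stood at 231834 and 240758 TPM in drones, 14457 and 14567 TPM in queens and 53945 and 53973 TPM in workers. CPF2 made up 195420 and 203711 TPM of the drone sums, and a transcript of it met the selection thresholds and was set aside by name. The cuticle sum is therefore not independent of the selection, and CPF2 is also among the genes called higher below. CPF2 alone took 19.5% and 20.4% of the TPM of the drone libraries, 0.737% and 0.759% in queens and 4.30% and 4.23% in workers. Of 12 plus-strand cuticle genes tested, 5 were higher and 2 lower in drones than in queens, where 22% of plus-strand genes were higher and 20.2% lower. Against workers, 6 of the 12 were higher and 3 lower, where 17.6% of plus-strand genes were higher and 20.9% lower. The muscle list (4 troponin genes on the plus strand) was at 144 and 131 TPM in drones, 1606 and 1574 TPM in queens and 236 and 289 TPM in workers. The photoreceptor opsin genes Blop and Lop1 went different ways against workers. Blop was at 841 and 914 TPM in drones, 12.3 and 12.9 TPM in queens and 171 and 169 TPM in workers. It was higher in drones by a log2 fold change of 2.60 (SE 0.07) over workers. Lop1 was at 1057 and 1175 TPM in drones, 565 and 604 TPM in queens and 4363 and 4219.8 TPM in workers, and was lower in drones than in workers (-1.71, SE 0.08). The neuronal genes Amih and brp were present in all libraries, at 236 and 208 TPM in drones, 632 and 622 TPM in queens and 343 and 393 TPM in workers. The glial list (GlnS and Gat-a on the plus strand) was at 2822 and 2937 TPM in drones, 5695 and 5877 TPM in queens and 4682 and 4899 TPM in workers. These 2 genes went different ways in the edgeR fit. GlnS, at 2443 and 2571 TPM in drones, made up most of the sum and was lower in drones than in queens (-0.67, SE 0.08) and workers (-0.63, SE 0.08). Gat-a was higher in drones than in queens (0.24, SE 0.07) and workers (0.78, SE 0.08). Royal jelly protein genes, which mark the hypopharyngeal gland, were at 29.1 and 33.2 TPM in drones, 31.5 and 30.5 TPM in queens and 23608 and 23961 TPM in workers. The part of any of these tissues in the members' values was not tested. Because CPF2 and a few other transcripts fill so much of the drone libraries, TPM of other genes are lower in drones than on a scale set by the bulk of genes, and dividing by TMM factors raised the number of targets meeting the thresholds to 25, with all 17 members among them.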

How the data were processed

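The authors built a Kallisto index from EnsemblMetazoa transcripts and non-coding RNAs of Amel_HAv3.1 and quantified each library with strand-specific settings; the Kallisto version is not given in the sources used here. For every target the deposited tables hold an estimated count and a TPM value, and another gives exon coordinates of 28381 targets. Estimated counts are not normalized. Targets were paired with RefSeq genes of Amel_HAv3.1 by coordinates (28265 targets, 12352 genes). The 144 others, with 2.22% to 3.99% of a library's counts, stayed out of the tests.

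Counts were rounded, filtered (5 counts in at least 3 of 6 libraries) and fitted with edgeR 4.0.16 in R 4.3.3 (TMM, quasi-likelihood, caste only, all 6 libraries), per target and summed per gene, with FDR at 0.05. The script was tested on simulated data. Alternatives used DESeq2 1.42.0, limma 3.58.1 on log2(TPM + 1), other scalings and filters, the replicate block, thinning and single libraries left out. Python 3.11.15 and pandas 2.3.3 made the tables. The members, marker lists and tests were chosen with earlier results of these data known. Named were the 10 members highest by lower drone TPM, the 10 of largest ratio, those called between queens and workers, and the 3 nearest each threshold on either side.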

Additional observations from a re-analysis of the deposited data

How the results depend on the processing

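Other thresholds gave 26 transcripts meeting the selection in place of 17 at a minimum of 5 TPM, 55 at a ratio of 3 and 11 genes with TPM summed per gene, and it was between 19 and 27 with a library left out. Of the members, 6 were called between queens and workers, 3 with the replicate block, 2 with only those 2 phenotypes in the fit and between 2 and 5 with a library left out. For member genes the 11 calls became between 6 and 10 with a library left out. Neighbour calls between drones and queens, 17, numbered between 11 and 18 with a library left out and 11 with plus-strand genes alone, a setting chosen after seeing the data; against workers, the 9 higher and 3 lower became 9 and 6 when scaled by library totals. The run on plus-strand genes alone tested 14 neighbours between drones and queens, where the main fit tested 27. It called 4 of these 14 higher and 7 lower in drones. The main fit had called 3 of the plus-strand neighbours higher and 7 lower, so that run lost no calls in number. Replicate numbers are shared between phenotypes only as labels. Deviations of same-numbered libraries correlated at -0.35, -0.09 and -0.01 over genes, so the block was not taken as a pairing. No called member or gene changed direction in an alternative run. Of the values of single called members and genes, 54 lost the call in an alternative and 211 kept it. Promoter motifs were not run because no promoter sequences were used here. Each group has 2 libraries, the shallowest a worker library at 7685185 counts, and what size of difference this depth can show for members with few female counts was not tested. The cause of these shifts was not tested.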
